A study of Mus musculus with 11 samples.

Results

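Immediate early genes are genes whose transcription rises within minutes of neuronal firing without new protein synthesis, and 10 of them were followed here in the hippocampus of mice that lack the 1b regulatory interval of Scn1a. They were chosen by name, with earlier results of these data known: Fos, Fosb, Junb, Egr1, Egr2, Arc, Npas4, Nr4a1, Ier2 and Dusp1. All 10 were found among the 24391 genes of the heterozygous table and the 24015 genes of the homozygous table, and all 10 passed the low-count filter in both. Scn1a encodes the voltage-gated sodium channel Nav1.1, and the comparisons ask how transcription in the hippocampus differs when 1 or both copies of 1b are deleted.

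RNA was sequenced in 2 rounds from 11 mice at postnatal day 32, an age that the study's methods give, while the sample labels say adult. The heterozygous round held 4 1b+/- mice (3 males and 1 female, replicate 4) and 3 WT males, read as longer paired ends. The homozygous round held 2 1b-/- mice (a male, replicate 1, and a female, replicate 2) and 2 WT females, read as short single ends. The mice were C57BL/6N, from 1 line with a Cas9-made deletion of the interval in the germline, so that every cell of a mutant carried it, and the WT mice carried no engineered allele. Hippocampus came from 1 hemisphere of each mouse, after isoflurane and decapitation, and the 1b-/- mice were survivors of a genotype in which many pups die early. The labels name no convulsant or other stimulus for these mice. In bulk tissue, fewer cells of a type and less RNA per cell cannot be told apart.

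Neuronal firing lets calcium into the cell through NMDA receptors and voltage-gated calcium channels, and calcium and ERK signalling then act on factors that already sit on immediate early promoters. The cAMP response element, bound by CREB, and the CArG box, bound by serum response factor together with ternary complex factors, are the best known of these promoter elements. In the hippocampus these transcripts are short-lived, rise with exploration, learning and seizures, and serve as a record of recent neuronal activity. Most of the 10 encode transcription factors, Arc acts at the synapse, and Dusp1 switches off the kinases that induce the family.

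To show promoters that carry these elements, the 250 bases before the annotated start were taken from RefSeq promoter entries (GRCm38.p6) and matched to the mm9 assembly on which the reads were aligned. Entries were matched for 7 of the 10 genes, and Arc, Egr1 and Ier2 had none. On either strand, the core of the cAMP response element (TGACG) stood in this window in all 7 genes, beside 19.8% of 27025 genes (5347 genes). Of the 11 windows of these 7 genes, 9 held it, beside 17.8% of 32851 promoter windows of the same length (5836 windows). The whole element (TGACGTCA, which holds the core on both strands) was found in Dusp1 and in 1.77% of all genes. The CArG box was found in Egr2 (1.62% of all genes) and TATAAA in Fos (14.3%). Printed here are the promoters of Npas4, the member with the largest difference in 1b+/- mice, and of the 4 matched genes whose difference between genotypes passed the test at the end of these comparisons. Each runs 5′ to 3′, from shortly before its first motif to the base before the start of the RefSeq transcript, and for Egr2 1 of 5 windows is shown. Coordinates are those of mm9, and capitals mark the letters of these motifs.
Fos, chr12:86814699-86814839, plus strand: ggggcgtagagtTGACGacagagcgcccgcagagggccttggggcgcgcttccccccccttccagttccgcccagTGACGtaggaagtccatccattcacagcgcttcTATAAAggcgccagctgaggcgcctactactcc
Egr2, chr10:67000494-67000616, plus strand: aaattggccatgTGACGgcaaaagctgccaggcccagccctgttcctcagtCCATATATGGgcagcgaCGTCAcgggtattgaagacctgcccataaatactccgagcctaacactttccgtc
Npas4, chr19:4989972-4990162, minus strand: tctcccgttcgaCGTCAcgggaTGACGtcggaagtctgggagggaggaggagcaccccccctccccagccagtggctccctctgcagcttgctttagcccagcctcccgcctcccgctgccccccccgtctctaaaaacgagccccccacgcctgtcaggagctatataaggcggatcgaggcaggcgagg
Nr4a1, chr15:101097032-101097276, plus strand: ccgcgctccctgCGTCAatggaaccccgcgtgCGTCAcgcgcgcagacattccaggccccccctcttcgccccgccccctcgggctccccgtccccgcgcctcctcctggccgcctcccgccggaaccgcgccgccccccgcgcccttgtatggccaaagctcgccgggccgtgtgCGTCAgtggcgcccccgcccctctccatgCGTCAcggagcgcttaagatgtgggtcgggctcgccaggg
Dusp1, chr17:26645418-26645620, minus strand: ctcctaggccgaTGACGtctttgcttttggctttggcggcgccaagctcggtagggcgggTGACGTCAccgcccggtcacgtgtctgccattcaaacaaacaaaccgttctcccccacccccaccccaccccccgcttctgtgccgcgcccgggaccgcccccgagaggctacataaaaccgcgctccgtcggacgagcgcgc

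In Fos, which encodes a subunit of the AP-1 transcription factor, the core of the element began at -129 and -66 from the start and TATAAA at -33. Egr2, which encodes a zinc-finger transcription factor, held a CArG box at -72 between cores at -111 and -55. In Npas4, which encodes a neuron-specific factor induced by calcium entry, the cores at -179 and -169 lay close together and on opposite strands. Nr4a1, an orphan nuclear receptor gene, had the most cores of the 7, at -233, -213, -69 and -40, and the whole element of Dusp1 began at -143. Fosb and Junb, whose sequences are not shown, had 1 core each, at -60 and -106. These matches describe letters in a window of 250 bases. Elements farther upstream were not searched, and no match was tested for binding.

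The members are compact genes. In the mm9 annotation their spans ran from 1522 bases in Ier2, on chromosome 8 from 87185230 to 87186751, to 7947 bases in Nr4a1, on chromosome 15 from 101097277 to 101105223. The median span was 3633 bases, against 25441 bases over 12804 genes tested, and the median number of exon blocks was 3.5 against 10. Fos lay on chromosome 12 from 86814840 to 86818223, and Fosb on chromosome 7 from 19888070 to 19895394. Arc lay on chromosome 15 from 74499513 to 74503000, Npas4 on chromosome 19 from 4984355 to 4989971, and Egr2 on chromosome 10 from 66998223 to 67004936. None of the 10 was on chromosome 2, where Scn1a lies.

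Levels are counts scaled to library size (CPM), with TMM factors within a round, from raw counts that the authors deposited. Libraries held from 20667122 to 36145161 counts, and the lowest count of any member in any library was 30, for Egr2 in 1b-/- replicate 2. Scn1a itself stood at 26.3 and 16.7 CPM in the 2 1b-/- mice and at 134 and 173 CPM in their WT mice. In the heterozygous round it ran from 83.3 to 119 CPM in 1b+/- mice and from 113 to 171 CPM in WT mice, and these groups overlapped. Scn1a was lower in both mutant groups, as the labels would have it, and passed an adjusted p under 0.05 in 1b-/- mice (log2 fold change -2.83 with a standard error, SE, of 0.27, adjusted p = 0.0211) but not in 1b+/- mice (-0.47, SE 0.15, adjusted p = 0.303). Unless another tool is named, p-values are those of a quasi-likelihood fit in edgeR to all genes, and adjusted ones are corrected over all genes tested by the Benjamini-Hochberg procedure.

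The labelled tissue was checked against markers of hippocampus and of neighbouring regions, and the WT libraries of the homozygous round went against the label. Their 15 striatum markers summed to 8339 and 3442 CPM, while the range was 249.8 to 334 CPM in 1b-/- mice and 193 to 401 CPM over the 7 libraries of the other round, whose table held 14 of the 15. Their 14 hippocampus markers summed to 293 and 364 CPM, against 1249 and 1335 CPM in 1b-/- mice and 839 to 1040.3 CPM in the heterozygous round. None of the 14 hippocampus markers was at 0 in any group. C1ql2, a gene of dentate granule cells, stood at 1.81 CPM ± 0.0516 (SD, n = 2) in these WT mice and 75.3 CPM ± 5.13 (SD, n = 2) in 1b-/- mice. Every comparison of 1b-/- mice below rests on these 2 WT libraries. Without WT replicate 1 of this round 0% of 14680 genes were called, and without WT replicate 2 1.31% of 14670, so calls in those fits are read against these shares.

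**Figure D1:**
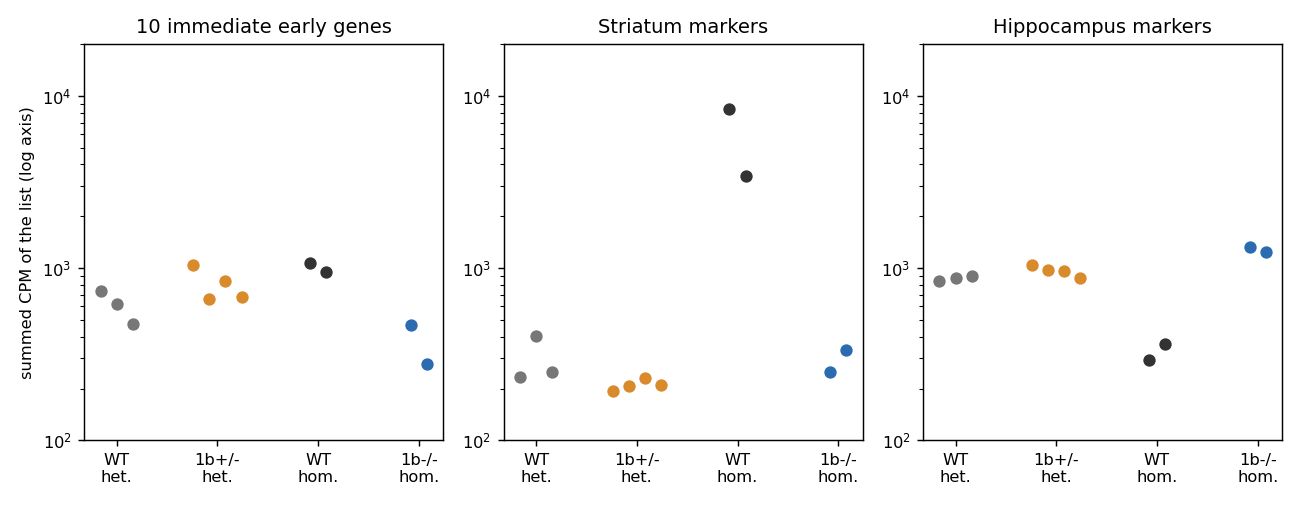
Summed CPM (log axis) of the 10 immediate early genes, of the striatum markers and of the hippocampus markers in each library, with 1 point per mouse in WT and 1b+/- mice of the heterozygous round and WT and 1b-/- mice of the homozygous round. The WT libraries of the homozygous round sit at 3442 and 8339 CPM for striatum markers, above the other 9 libraries, and at 293 and 364 CPM for hippocampus markers, below them.

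Levels were first ordered per kilobase of exon among the WT mice of the heterozygous round, where hippocampus markers outweighed striatum markers. Egr1 led at 70.4 CPM per kb, followed by Arc at 55.3, Nr4a1 at 29.0, Junb at 26.8 and Fos at 13.7 CPM per kb. Dusp1 (6.65), Fosb (6.23), Npas4 (4.33), Ier2 (3.48) and Egr2 (3.18 CPM per kb) followed. The ranges of the 3 WT mice stood apart between Arc and Nr4a1, between Junb and Fos, and between Fos and Dusp1. Every other pair of neighbours overlapped, so that the order within Egr1 and Arc, within Nr4a1 and Junb, and between neighbours among the last 5 was not resolved. Dusp1 and Fosb both stood wholly above Ier2 and Egr2. Egr1 and Arc, which is needed for lasting synaptic change, were thus at the top.

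In 1b+/- mice, 8 of the 10 genes had a higher mean than in WT mice, and Npas4, Arc, Dusp1, Ier2 and Nr4a1 were the furthest up, from 139% to 170.2% of the WT mean. None of them passed the test over all genes, where 0% of 14630 genes were called. At an unadjusted p under 0.05, 6 of the 10 were higher (Npas4, Ier2, Dusp1, Arc, Nr4a1 and Junb) and none was lower, against 5.32% of all genes that were higher at that level. The median log2 fold change of the 10 was 0.41, against 0.0007 over all genes tested.

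The 3 AP-1 genes gave different values, none past the threshold. Fos stood at 52.1, 27.9, 42.6 and 38.7 CPM in 1b+/- replicates 1 to 4, and at 40.9, 28.7 and 26.8 CPM in WT replicates 1 to 3. The groups overlapped, with 1b+/- replicates 2 and 4 in the WT range (log2 fold change 0.32, SE 0.20, adjusted p = 0.593). Junb, whose product pairs with Fos proteins, stood at 80.0, 47.0, 65.2 and 55.6 CPM in 1b+/- mice and at 50.5, 47.8 and 47.1 CPM in WT mice. The WT mice lay close together (48.5 CPM ± 1.77, SD, n = 3), and 3 of the 4 1b+/- mice stood above them (log2 fold change 0.35, SE 0.15, adjusted p = 0.418). Fosb, which also encodes the long-lived splice form that builds up after repeated activity, was at 22.8, 21.8, 27.2 and 13.2 CPM in 1b+/- mice and 25.8, 24.2 and 20.1 CPM in WT mice. The low female apart, the 1b+/- mice lay within or just above the WT range (log2 fold change -0.14, SE 0.20). The table counts whole genes, so the Fosb splice forms were not separated.

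Egr1, an activity-regulated zinc-finger factor long used to map neuronal firing, was at 319.6, 232, 275 and 211 CPM in 1b+/- mice and at 264, 218 and 173 CPM in WT mice, with wide overlap (log2 fold change 0.25, SE 0.16, adjusted p = 0.606). Egr2 was at 14.8, 8.03, 12.4 and 6.55 CPM in 1b+/- mice and 12.3, 12.3 and 7.80 CPM in WT mice. Its 1b+/- libraries spread more widely than the WT libraries on both sides (log2 fold change -0.06, SE 0.27), and the female had the lowest value, as for Fosb.

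Npas4 had the largest fold change of the 10. It stood at 31.3, 16.9, 24.7 and 23.8 CPM in 1b+/- mice, a mean of 24.2 CPM ± 5.87 (SD, n = 4), and at 17.9, 12.9 and 11.9 CPM in WT mice, a mean of 14.2 CPM ± 3.24 (SD, n = 3). Only 1b+/- replicate 2 and WT replicate 1 overlapped (log2 fold change 0.76, SE 0.20, unadjusted p = 0.00446, adjusted p = 0.228). DESeq2 called it at an adjusted p of 0.00707 and edgeR's likelihood ratio test at 0.0301, and over the 15 alternatives, 3 of which called it, its adjusted p lay between 0.00707 and 0.9999. Nr4a1 was at 136, 76.6, 99.6 and 87.2 CPM in 1b+/- mice and at 83.6, 74.6 and 57.3 CPM in WT mice, with overlap between 1b+/- replicate 2 and WT replicate 1 again (log2 fold change 0.47, SE 0.19, adjusted p = 0.395).

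Arc, the synaptic effector of the family, was at 348, 207, 257 and 204 CPM in 1b+/- mice and at 209, 183 and 115 CPM in WT mice. The highest WT mouse stood just above 2 of the 1b+/- mice, and the lowest WT mouse far below the rest (log2 fold change 0.59, SE 0.23, adjusted p = 0.378). Dusp1, the phosphatase that ends MAP kinase signalling, was at 30.7, 19.8, 26.6 and 30.2 CPM in 1b+/- mice and 23.9, 17.3 and 12.6 CPM in WT mice (log2 fold change 0.57, SE 0.21, adjusted p = 0.353). Ier2, a short nuclear protein gene, was at 9.13, 6.12, 7.01 and 9.02 CPM in 1b+/- mice and 6.15, 4.95 and 4.80 CPM in WT mice (log2 fold change 0.56, SE 0.17, adjusted p = 0.269). For Ier2 the overlap was that of 1b+/- replicate 2 and WT replicate 1 alone.

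No member had all 4 1b+/- mice above all 3 WT mice, an arrangement that 4.69% of all genes showed. Two-sided exact permutation tests over the 35 splits of the 7 mice gave unadjusted p-values from 0.0857 for Npas4 and Ier2 to 0.914 for Egr2, where 0.0286 is the smallest p that the design allows. The count of members higher at an unadjusted p under 0.05 changed with single mice. It was 2 without 1b+/- replicate 1 (4.95% of all genes higher) or WT replicate 3 (3.01%). Without 1b+/- replicate 3 (5.14%) or WT replicate 2 (4.27%) it was 3, and without 1b+/- replicate 4 (5%) it was 5. It rose to 7 without 1b+/- replicate 2 (4.58%) or WT replicate 1 (8.18%). With DESeq2 (4.74%) or all 11 libraries in 1 fit (2.26%) it was 4. Without the only female, 1b+/- replicate 4, all 10 genes had a positive log2 fold change, Fosb at 0.033 and Egr2 at 0.11, and a term for sex gave nearly the same fit, since it absorbs that mouse.

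**Figure D2:**
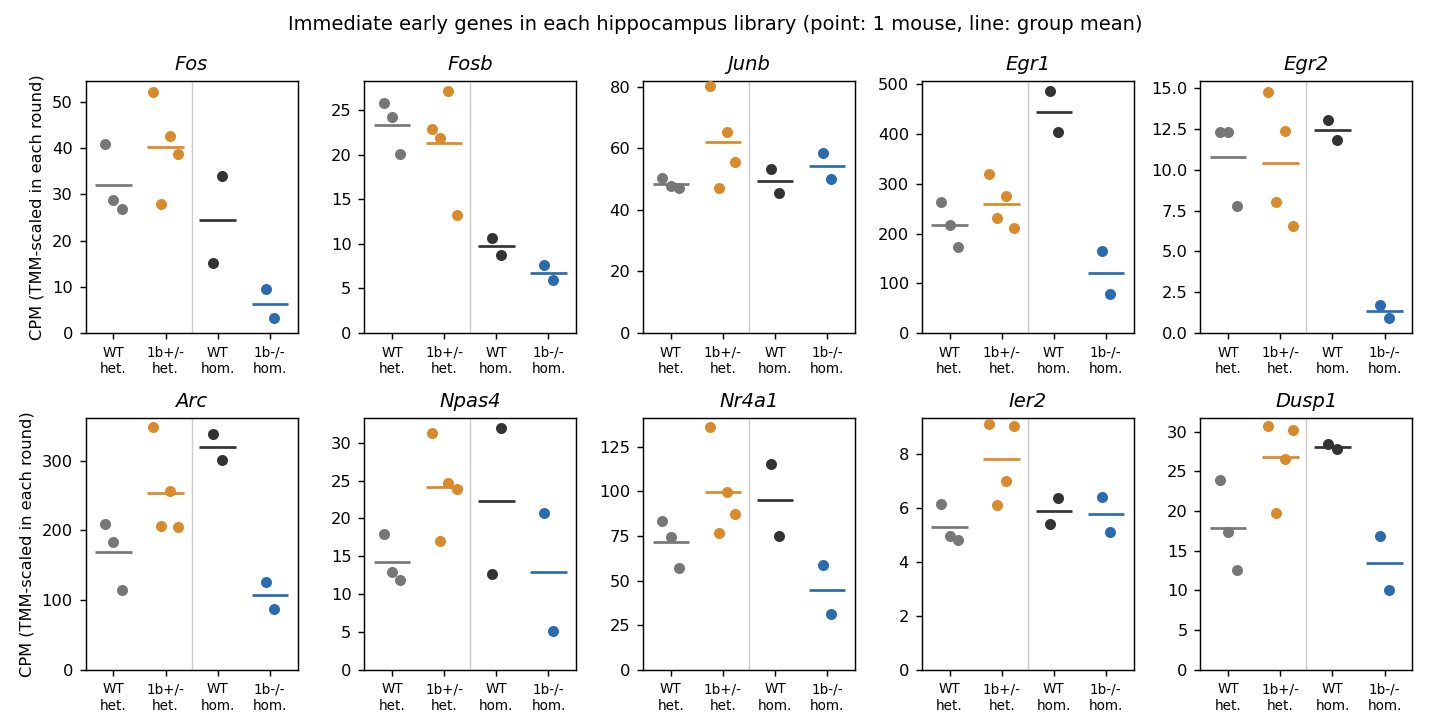
Level of each immediate early gene in CPM, TMM-scaled within each round, with 1 point per mouse and a line at the group mean, for WT and 1b+/- mice of the heterozygous round and WT and 1b-/- mice of the homozygous round. Groups overlap for all 10 genes in the heterozygous round, while 7 of the 10 have both 1b-/- mice below both WT mice.

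The levels of the members varied together from mouse to mouse within the heterozygous round. 1b+/- replicate 1 had the highest value of the 7 libraries for 9 of the 10 genes, all but Fosb, and WT replicate 3 had the lowest for 7 (Fos, Egr1, Arc, Npas4, Nr4a1, Ier2 and Dusp1). In 1b+/- replicate 1, Npas4 stood at 220.3% and Arc at 206% of the WT mean, while Fosb stood at 97.7%. In WT replicate 3, Arc stood at 68.0% and Dusp1 at 70.3%. The female, 1b+/- replicate 4, divided the family: Ier2 and Dusp1 stood at 170.1% and 168% of the WT mean there, while Egr2 and Fosb stood at 60.6% and 56.7%, the lowest of all 7 libraries. Choroid plexus markers summed to 61.6 CPM in 1b+/- replicate 1 and 764 to 2675 CPM in the other 6 libraries. Reads on the ribosomal precursor Rn45s made up 2.44%, 2.71%, 3.96% and 2.38% of counts in 1b+/- replicates 1 to 4. In WT replicates 1 to 3 they made up 3.3%, 3.85% and 4.45%. The part of these in the order of the libraries was not tested.

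**Figure D3:**
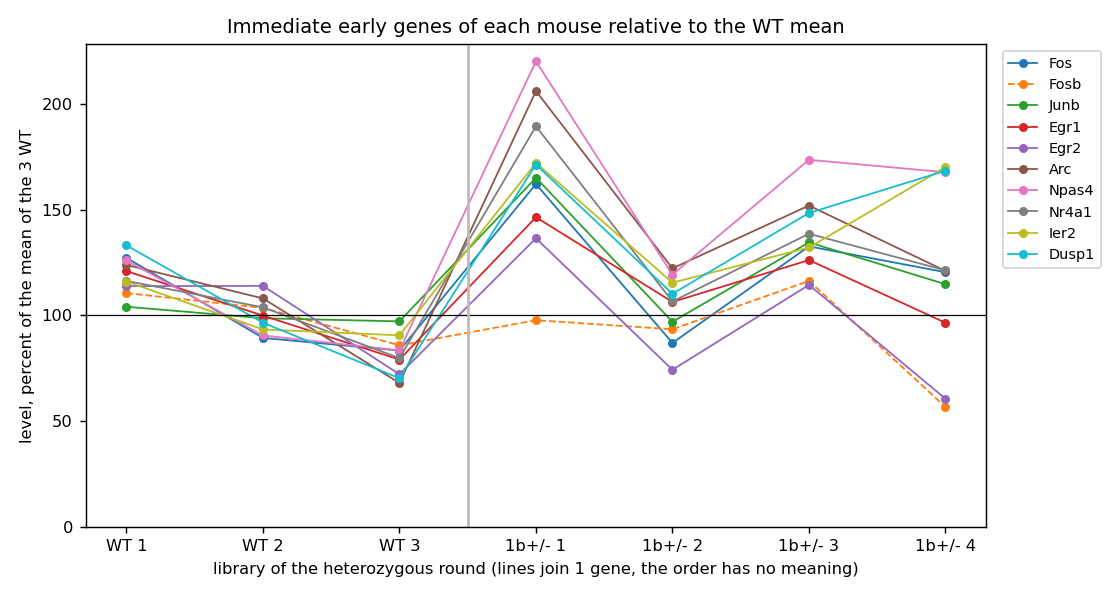
Level of each immediate early gene in each library of the heterozygous round, in percent of the mean of the 3 WT mice, with lines that join the values of 1 gene. Nearly all lines peak in 1b+/- replicate 1, where Npas4 reaches 220.3%, and the female, 1b+/- replicate 4, splits Ier2 and Dusp1 from Egr2 and Fosb.

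Over the 7 libraries, log2(CPM + 0.5) of the members was correlated for all 45 pairs, and 42 had a positive Pearson's r, with a median of 0.79 and a median Spearman's rho of 0.79. The libraries share their round but not their depth, and the groups overlapped for each gene. Arc and Nr4a1 were the closest pair (r = 0.97, two-sided exact permutation p = 0.00198, 0.0109 adjusted over the 45 pairs; rho = 0.89, exact permutation p = 0.0123, adjusted 0.0369), with r = 0.91 without the 2 libraries farthest from the median of Arc. Arc and Egr1 followed (r = 0.95, exact permutation p = 0.00119, adjusted 0.0109; rho = 0.96, exact permutation p = 0.00278, adjusted 0.0179), with r = 0.77 without the 2 farthest. Nr4a1 and Npas4 ranked the 7 mice in the same order (rho = 1, exact permutation p = 3.97e-04, adjusted 0.00893; r = 0.93, exact permutation p = 9.92e-04, adjusted 0.0109), and so did Ier2 and Dusp1 (r = 0.93). Nr4a1 had the highest median r with the other 9 (0.91) and Fosb the lowest (0.11). Fosb correlated most with Egr2 (r = 0.80) and was negatively related to Ier2 (r = -0.39), Dusp1 (-0.14) and Npas4 (-0.09).

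Over all 67808835 pairs of the 11646 genes with a mean of at least 5 CPM, 50.2% had a positive r, against 93.3% of the 45 pairs. The members' median r was reached by 2.88% of all pairs. Its share among the 45 pairs (51.1%) is fixed by its being their median. Leaving out the 2 libraries farthest from the median of the gene on the x axis left 43 pairs positive, with a median r of 0.62. When each library was expressed as its deviation from its group mean, 44 of the 45 pairs were positive, with a median r of 0.77. No share over all gene pairs was taken for these deviations, and they were not tested.

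**Figure D4:**
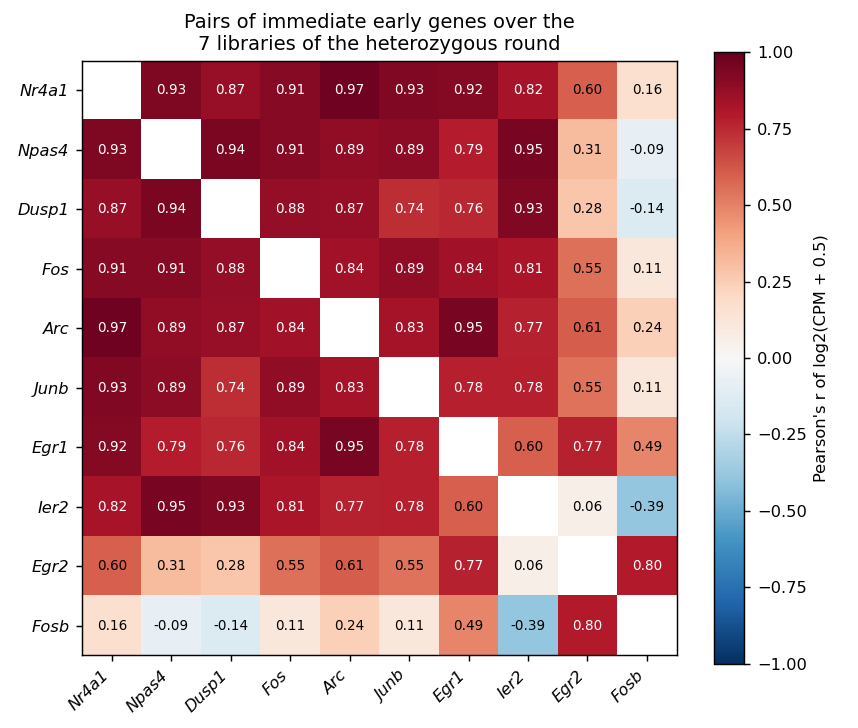
Pearson's r of log2(CPM + 0.5) for each pair of immediate early genes over the 7 libraries of the heterozygous round, with genes ordered by their median r. A block of 8 genes from Nr4a1 to Ier2 has r from 0.60 to 0.97 in every pair, while Egr2 and Fosb, at 0.80 with each other, stand partly outside it.

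The genes most like the family were then looked for among 11646 genes with a mean of at least 5 CPM, by Pearson's r with the mean of the members' standardised values over the same 7 libraries. The members themselves took ranks 1 (Nr4a1), 3 (Arc), 5 (Egr1) and 7 (Fos), as they enter that mean, while Npas4 was at 26, Junb at 30 and Fosb at 3626. The nearest 12 other genes were Zfp658 (r = 0.98), Tmod1 (0.96), Daam1 (0.95), Aggf1, Gclm, Ythdc2, Snx30, Zfp948, Gtf2h2, Trps1, Vps13d and Pkd1 (0.92 for the last). None of these 12 was in any of the activity lists used here. The values are a description over 7 libraries.

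In 1b-/- mice most of the family lay on the other side of WT: 9 of the 10 genes had a lower mean than in WT mice, and Egr2 and Arc fell past the threshold. Those 2 of 10 compare with 1.52% of 14838 genes called lower, and 3.58% called in either direction. At an unadjusted p under 0.05, 6 of the 10 were lower (Egr2, Arc, Egr1, Dusp1, Fos and Nr4a1) and none was higher, against 12.8% of all genes that were lower. Both 1b-/- mice stood below both WT mice for 7 of the 10, against 30.2% of all genes. The median log2 fold change of the 10 was -1.07, against -0.0013 over all genes tested. The WT libraries of this round held the striatum markers given above, and the part of these markers in the values that follow was not tested.

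Egr2 was at 1.73 and 0.940 CPM in 1b-/- replicates 1 and 2 and at 13.1 and 11.8 CPM in the WT mice. The 1b-/- mean was 10.7% of the WT mean, the lowest of the family (log2 fold change -3.21, SE 0.35, adjusted p = 0.0238). Egr1 was at 164 and 78.8 CPM in 1b-/- mice and at 486 and 404 CPM in WT mice. All 4 values of Egr1 kept the genotypes apart, at 27.3% of the WT mean, but its adjusted p was 0.0604 (log2 fold change -1.87, SE 0.36; -1.73 and -2.001 without WT replicates 1 and 2).

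Arc was at 126 and 87.7 CPM in 1b-/- mice and at 338 and 301 CPM in WT mice. Its mean fell to 33.4% of WT (log2 fold change -1.58, SE 0.21, adjusted p = 0.0307). Dusp1 was at 16.9 and 10.1 CPM in 1b-/- mice and at 28.4 and 27.8 CPM in WT mice, with WT mice nearly alike (log2 fold change -1.06, SE 0.27, adjusted p = 0.0937). Nr4a1 was at 58.7 and 31.1 CPM in 1b-/- mice and at 115 and 75.0 CPM in WT mice, apart but with a wide spread in both groups (log2 fold change -1.08, SE 0.36, adjusted p = 0.145; -0.73 and -1.36 without WT replicates 1 and 2).

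Fos was at 9.48 and 3.20 CPM in 1b-/- mice and at 15.1 and 33.9 CPM in WT mice. The genotypes did not overlap, and the WT mice differed from each other by more than the lower WT mouse did from the higher 1b-/- mouse (log2 fold change -1.95, SE 0.62, adjusted p = 0.135). Single mice moved this value, to -1.25 without WT replicate 2, -2.41 without WT replicate 1 and -2.94 without 1b-/- replicate 1. Npas4 varied in the same way, at 20.7 and 5.07 CPM in 1b-/- mice and 12.6 and 32.0 CPM in WT mice, and here the genotypes overlapped (log2 fold change -0.79, SE 0.74; -1.30 without WT replicate 1 and 0.035 without WT replicate 2). For Fos and Npas4 alike, WT replicate 2 was the highest of the 4 mice and 1b-/- replicate 2 the lowest.

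The other 3 genes differed little. Fosb was at 7.61 and 5.92 CPM in 1b-/- mice and 10.7 and 8.70 CPM in WT mice (log2 fold change -0.52, SE 0.23, adjusted p = 0.229). Junb was at 58.5 and 49.8 CPM in 1b-/- mice and 53.3 and 45.3 CPM in WT mice, and its log2 fold change of 0.14 (SE 0.15) was the only positive one. Ier2 was at 6.42 and 5.11 CPM in 1b-/- mice and 5.42 and 6.36 CPM in WT mice (log2 fold change -0.03, SE 0.25). 1b-/- replicate 2 had the lowest value of the round for 9 of the 10 genes, all but Junb, and its choroid plexus markers summed to 13701 CPM, against 63.3 CPM in 1b-/- replicate 1 and 54.7 and 3440.4 CPM in the WT mice. The part of these markers was not tested.

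With 2 mice a group, an exact permutation test of a single gene cannot go below p = 0.33. Without either WT replicate 1 or WT replicate 2, 1 WT mouse was left. No member then entered the count of genes called by edgeR, in fits that called few or no genes of the whole table. The log2 fold changes stayed near their values, at -3.14 and -3.29 for Egr2 (adjusted p = 0.105 and 0.0699) and at -1.49 and -1.66 for Arc (adjusted p = 0.113 and 0.0766). The count was 6 without 1b-/- replicate 1 (2.11% of all genes lower) and 3 without 1b-/- replicate 2 (1.46%). A term for sex absorbs 1b-/- replicate 1, the only male, and gave nearly the same values as leaving it out. The count was also 6 with DESeq2 (6.54% of all genes lower), with the likelihood ratio test (5.7%) and with all 11 libraries in 1 fit (18.4%). The 6 were Egr2, Arc, Egr1, Fos, Nr4a1 and Dusp1 in each fit that called 6.

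Since the WT libraries of the homozygous round went against their label, the 1b-/- levels were also set beside the WT mice of the heterozygous round, with CPM scaled over all 11 libraries. Round and read type cannot be told apart from genotype here, and no test was made. Egr2 had a mean of 1.31 CPM in 1b-/- mice, 11.1 CPM in WT mice of the heterozygous round and 12.3 CPM in WT mice of the homozygous round. For Fos these means were 6.22, 33.0 and 24.1 CPM, so that both genes were low in 1b-/- mice whichever WT mice stood beside them. Egr1 (119, 224 and 438 CPM), Arc (105, 174 and 314 CPM) and Dusp1 (13.2, 18.4 and 27.7 CPM) were the 3 genes higher in both WT mice of the homozygous round than in all WT mice of the heterozygous round. Fosb went the other way, with 6.62, 24.0 and 9.54 CPM. Both 1b-/- mice stood below all 3 WT mice of the heterozygous round for 5 genes (Fos, Fosb, Egr1, Egr2 and Nr4a1), against 34% of all genes, while Arc, with 124 CPM in the higher 1b-/- mouse and 118 CPM in the lowest of those WT mice, overlapped.

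Whether the 2 mutant genotypes differ was put to a test of its own, the contrast of the 1b-/- change with the 1b+/- change over all 11 libraries. All 10 contrasts were negative, and 6 genes passed, against 13% of 14905 genes that passed in the same direction. Egr2 had the largest contrast (-3.16, SE 0.52, adjusted p = 0.00206), from a log2 fold change of -0.06 in 1b+/- mice and -3.21 in 1b-/- mice. Fos followed with -2.27 (SE 0.61, adjusted p = 0.0207), Arc with -2.17 (SE 0.39, adjusted p = 0.00322) and Egr1 with -2.13 (SE 0.40, adjusted p = 0.00400). Dusp1 (-1.64, adjusted p = 0.0120) and Nr4a1 (-1.56, adjusted p = 0.0220) were the others. Npas4 (-1.55, SE 0.72, adjusted p = 0.135), Ier2 (-0.60, SE 0.28), Fosb (-0.39, SE 0.36) and Junb (-0.23, SE 0.25) did not pass. This fit takes 1 estimate of spread per gene from both rounds together. The common coefficient of variation between mice was 14.1% in it, against 9.13% and 22.9% in the heterozygous and homozygous rounds fitted alone. The SE of Fos was 0.61 here and 0.62 in the homozygous round alone, so the p-values of the contrasts may be too small.

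Leaving out each library in turn gave between 4 and 7 called genes (8.81% to 15.9% of all genes in the same direction), with 4 without WT replicate 3 of the heterozygous round or without 1b-/- replicate 2, and 5 without either WT mouse of the homozygous round. Egr1, Egr2, Arc and Dusp1 were called in all 18 alternatives, and Fos and Nr4a1 in 15 of 18. Each genotype was set against the WT mice of its own round, so the WT libraries with striatum markers enter every contrast, and their part was not tested.

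**Figure D5:**
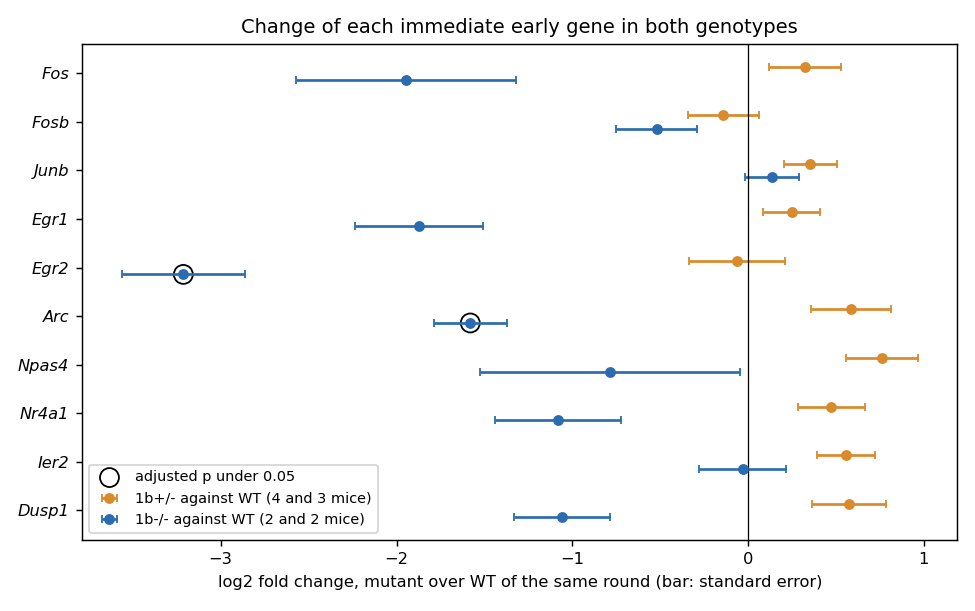
log2 fold change of each immediate early gene against the WT mice of its own round, in 1b+/- mice (4 against 3) and in 1b-/- mice (2 against 2), with bars of 1 SE and circles around values with an adjusted p under 0.05. Only Egr2 (-3.21) and Arc (-1.58) in 1b-/- mice are circled, and most pairs of points lie on opposite sides of 0.

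Of the wider set of 38 immediate early genes that are not members, 36 were tested in the heterozygous round and none was called. The 6 with an unadjusted p under 0.05 (4 higher and 2 lower, against 11.3% of all genes in either direction) had no common direction, the median log2 fold change of the list was 0.02, and 24 of the 36 were positive. Rgs2, a regulator of G protein signalling, had the smallest p (log2 fold change -0.28, SE 0.05, adjusted p = 0.0881), at 34.3 CPM ± 1.53 (SD, n = 4) against 41.7 CPM ± 1.70 (SD, n = 3). Ier5 had 0.20 (SE 0.05, adjusted p = 0.165) and the antiproliferative gene Btg2 0.59 (SE 0.20, adjusted p = 0.329).

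In 1b-/- mice 34 of the 38 were tested and 6 were called, 3 in each direction, against 1.52% of all genes lower and 2.06% higher. Homer1, whose short activity-induced form loosens the postsynaptic scaffold, fell from 171 CPM ± 8.80 (SD, n = 2) in WT to 63.9 CPM ± 11.1 (SD, n = 2) in 1b-/- mice (log2 fold change -1.42, SE 0.16, adjusted p = 0.0251). Trib1 (-1.01, adjusted p = 0.0385) and Ier5 (-0.79, adjusted p = 0.0452) were the other genes that fell. Nr4a3, the paralog of the member Nr4a1, rose from 8.87 CPM ± 0.354 (SD, n = 2) to 37.8 CPM ± 2.13 (SD, n = 2), or 2.09 on the log2 scale (SE 0.15, adjusted p = 0.0191). Jun, the partner of Fos in AP-1, rose by 1.21 on the log2 scale (SE 0.12, adjusted p = 0.0218) and the ERK phosphatase gene Dusp5 by 1.61 (SE 0.20, adjusted p = 0.0291). Of the 34, 14 had an unadjusted p under 0.05 in 1b-/- mice, against 26.4% of all genes, and their median log2 fold change was -0.27. Without WT replicate 1, when no gene of the table was called, none of the 34 was, and without WT replicate 2 it was 1.

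Genes that respond to activity later, after the immediate early factors are made, were read from a list of 20. None was called in 1b+/- mice, and 2 had an unadjusted p under 0.05, a share no higher than the 11.3% of all genes. These were Scg2 (-0.31, SE 0.07, adjusted p = 0.165) and Vgf (-0.18, SE 0.06, adjusted p = 0.327), both lower. Pcsk1, a protease gene, came next (-0.12, SE 0.05, adjusted p = 0.444). In 1b-/- mice 2 of the 20 were called, against 3.58% of all genes. Rgs4 fell from 981 CPM ± 164 (SD, n = 2) to 206 CPM ± 11.9 (SD, n = 2), or -2.25 on the log2 scale (SE 0.18, adjusted p = 0.0204), and Dusp4, a nuclear ERK phosphatase gene, rose by 2.26 on the log2 scale (SE 0.20, adjusted p = 0.0207). Without WT replicate 1, when no gene of the table was called, neither was, and without WT replicate 2 the list had 1 lower and 1 higher.

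The machinery upstream was covered by 28 genes for serum response factor, CREB, MEF2, their partners, kinases and calcium entry. None was called in 1b+/- mice, and 3 had an unadjusted p under 0.05, a share no higher than the 11.3% of all genes. These were the ERK1 gene Mapk3 (-0.26, SE 0.05, adjusted p = 0.122), the coactivator gene Ep300 (0.12, SE 0.04, adjusted p = 0.367) and Mef2c (-0.14, SE 0.06, adjusted p = 0.413). In 1b-/- mice 4 were called, 3 lower and 1 higher, against 3.58% of all genes in either direction. Camk4, the nuclear calcium-dependent kinase that phosphorylates CREB, fell from 481 CPM ± 59.3 (SD, n = 2) to 162 CPM ± 17.7 (SD, n = 2), or -1.57 on the log2 scale (SE 0.16, adjusted p = 0.0223). The kinase genes Rps6ka5 (-1.53, adjusted p = 0.0349) and Rps6ka3 (-1.32, adjusted p = 0.0276) also fell, while Mkl1, a coactivator of serum response factor, rose by 0.97 (adjusted p = 0.0473). Srf itself had a log2 fold change of 0.16 (adjusted p = 0.640) and Creb1 of -0.22 (adjusted p = 0.344). Without WT replicate 1, when no gene of the table was called, none of the 28 was, and without WT replicate 2 it was 1.

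Markers also differed between the groups compared, and their values stand here beside the gene groups above. In striatum markers the 1b-/- mice lay in the range of the heterozygous round, and the WT libraries of their own round far above it. In hippocampus markers those WT libraries lay below that range and the 1b-/- mice above it. In 1b-/- mice, 12 of 15 striatum markers were called lower, with a median log2 fold change of -4.41, led by Ido1 (-6.60) and Tac1 (-4.41), and 7 of 14 hippocampus markers were called higher, with a median of 2.19, led by C1ql2 (5.37) and Spink8 (5.17). Neocortex markers had 2 lower and 1 higher of 10, and astrocyte markers 1 higher of 7, while none of the choroid plexus (8), thalamus (7), microglia (7) or endothelial and blood markers (5) was called. Of 15 genes of stress and handling, Ddit4 (0.71, adjusted p = 0.0494) and Hspa1b (2.46, adjusted p = 0.0498) were called higher. No gene of these lists was called without WT replicate 1, as in the whole table. Without WT replicate 2, 10 striatum markers were called lower and 6 hippocampus markers higher, and none of the neocortex, astrocyte or stress genes was. In 1b+/- mice no gene of any of these lists was called. At an unadjusted p under 0.05, 7 of the 11 striatum markers tested were lower, against 5.95% of all genes, with Tac1 at -0.93. Of the 14 hippocampus markers, 6 were higher at that level, against 5.32% of all genes, and 1 was lower, with Man1a at 0.24 and Neurod6 at 0.33. None of the 15 stress genes reached it, with Mt1 at 0.16 and Dnajb1 at -0.21. The part of these markers in the results on immediate early genes was not tested.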

How the data were processed

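Bulk RNA labelled as hippocampus was sequenced from 11 mice, as stranded poly(A) libraries. Raw counts per gene were deposited by the authors, 1 table per round, after alignment with STAR 2.7.2 (assembly mm9) and counting with featureCounts. The labels' notes on which table holds which round run opposite to the column names, and the column names were used. The featureCounts version and strand setting are not given in the sources used here, so reads of overlapping antisense genes may be included. Each table held 27 rows whose symbols had been turned into dates (0.300% to 0.372% of counts). These stayed in the library totals.

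The 10 members and all gene lists were chosen with earlier results of these data known. Each round was fitted alone with edgeR 4.0.16 in R 4.3.3 (TMM factors, quasi-likelihood test, genotype as the only term), over genes that reached 1 CPM in 1 or more libraries. The SE of a log2 fold change is its size divided by the square root of F, and p-values were adjusted over all genes by the Benjamini-Hochberg procedure, with a threshold of 0.05. The contrast between genotypes came from 1 fit of all 11 libraries over 14905 genes. The scripts were tested on simulated counts. Single members were also compared by exact permutation on log2(CPM + 0.5) in Python with scipy 1.17.1. No source says that mice of a group came from separate litters, so p-values measure the spread between these mice. Alternatives were the likelihood ratio test, DESeq2 1.42.0, RLE and upper-quartile scaling, no filter, edgeR's own filter, a single fit of all 11 libraries, a term for sex, and leaving out each library.

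Named genes were all 10 members, and of each further activity list up to 6 called genes with the smallest p per comparison, or the 3 with the smallest p where none was called. Of the stress and marker lists the 2 with the smallest p were named where values are given. Of these, 1 marker gene is not reported here. The 12 genes nearest to the members' mean profile were named too, with Scn1a as the check of genotype. Srf and Creb1 fall outside this rule and were chosen after their values were seen. Libraries from postnatal day 7 were not analysed here.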

Additional observations from a re-analysis of the deposited data

Results flagged for a closer look

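For 6 of the 10 immediate early genes the change in 1b-/- mice differed from that in 1b+/- mice by the test of the difference itself, over all 11 libraries in edgeR. On the log2 scale the 1b-/- change minus the 1b+/- change was -3.16 for Egr2, -2.27 for Fos, -2.17 for Arc, -2.13 for Egr1, -1.64 for Dusp1 and -1.56 for Nr4a1. The WT libraries of the homozygous round carried striatum markers at 3442 and 8339 CPM, and their part in these differences was not tested. The fit took 1 estimate of spread from both rounds, of which the homozygous round varied more, so its p-values may be too small. Of these genes, only Egr2 and Arc passed in the 1b-/- comparison itself. By Dixon's criterion (critical value 0.829), no member had a library set apart from the others in the 4 1b+/- mice, the only group large enough to be looked at. On 4 values this criterion is met only by a far outlier. 1b+/- replicate 1 still had the highest value of the 7 libraries for 9 of the 10 genes.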

How the results depend on the processing

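No paired analysis was possible because the labels tie no mouse of 1 group to a mouse of another. In 1b+/- mice, 1 member (Npas4) was called with the likelihood ratio test and with DESeq2, as was 1 gene of each of the 3 further activity lists, and leaving out each library in turn gave 0 to 1 called genes in each of these 4 groups of genes. The value of 1 came without WT replicate 1, where 219 genes of the whole table were called lower and 202 higher, against 0 of 14630 with all 7 libraries. Over all genes the likelihood ratio test called 156 lower and 35 higher in the heterozygous round, and DESeq2 185 lower and 60 higher. Leaving out the only female or adding a term for sex gave nearly the same fit. The log2 difference of Fosb turned to 0.033 and that of Egr2 to 0.11 with sex as a covariate, and with a library left out they lay between -0.28 and 0.033 and between -0.28 and 0.11.

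In 1b-/- mice, 3.58% of all genes were called in the main setting, 12.3% with the likelihood ratio test, 14.4% with DESeq2, 5.42% with no filter, 4.87% with sex as a covariate, 37.2% with all 11 libraries in 1 fit, and 0% to 4.69% with a library left out. Of the members, 6 were called with the likelihood ratio test, DESeq2, sex as a covariate or all 11 libraries in 1 fit, and 0 to 6 with a library left out. Of the other immediate early genes, 10 were called with DESeq2, 15 with all 11 libraries and 0 to 5 with a library left out. Of the delayed genes, 5 were called with the likelihood ratio test, with DESeq2 or with no filter, 8 with all 11 libraries and 0 to 3 with a library left out. Of the upstream genes, 9 were called with DESeq2, 14 with all 11 libraries and 0 to 5 with a library left out. With a library left out, Npas4 lay between -2.13 and 0.035 and Ier2 between -0.20 and 0.12. In these fits a lone mouse was assumed to vary like the other group, and the cause of the changes was not tested. Of 180 alternative values of the genotype contrast over the members, none changed sign and 6 lost their call, 3 of Fos and 3 of Nr4a1. Depth limits Egr2 in 1b-/- mice most, with 61 and 30 counts.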
